A study of Mus musculus with 10 samples.

Results

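The genes described here encode the constitutive proteasome, and they were taken as the protein-coding genes whose symbol begins with Psma, Psmb, Psmc or Psmd and a digit, leaving out the immunoproteasome genes Psmb8, Psmb9 and Psmb10. The rule found 37 of the 78317 genes in the table. Of these, 33 are subunits or tissue-specific variants of subunits, 3 (Psmd5, Psmd9 and Psmd10) are assembly chaperones, and 1 (Psmc3ip) fits the rule by its symbol alone: it encodes a meiotic recombination factor that was named for binding Psmc3. Bulk poly(A) RNA sequencing was done on 1-mm punches of the medial prefrontal cortex of wild-type mice. The 5 libraries numbered 13, 14, 15, 17 and 18 came from mice given an adeno-associated virus (AAV) that overexpresses the microRNA miR-130a-3p, and the 5 libraries numbered 3, 4, 5, 7 and 9 from mice given a control AAV. All animals thus received a virus. The sources used here give neither its promoter nor the animals' age, nor do they say how many mice stand behind the libraries. A p-value therefore speaks of the spread among libraries, which may be technical. Values are deposited TPM (transcript abundance scaled by transcript length and to a fixed library total), from which the depth of a library cannot be read.

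The proteasome degrades proteins that carry ubiquitin. Its core particle is a barrel of outer alpha rings, which gate the entry, and inner beta rings, in which Psmb5, Psmb6 and Psmb7 carry the catalytic sites. The regulatory particle caps the barrel: the ATPases of its base (Psmc1 to Psmc6) unfold substrates, and its lid removes the ubiquitin chain. Neurons use the complex for protein turnover at synapses, and cells of the immune system replace the catalytic subunits by Psmb8, Psmb9 and Psmb10, which favours peptides for antigen presentation.

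Of the 37 genes, 35 had a mean of at least 1 TPM and were tested with limma on log2(TPM + 1), with p-values adjusted over all 15680 genes tested. Psma6 and Psma3, which encode alpha-ring subunits, were higher in the miR-130a libraries, Psmc3ip was lower, and 32 did not pass the threshold of an adjusted p of 0.05. Among all genes tested, 13.5% passed it, 2.19% higher and 11.3% lower, so 3 calls among 35 genes do not stand above the background. The median log2 fold change of the 35 genes was 0.05, against -0.09 for all genes tested. In log2 fold change 21 of the 35 lay above 0, beside 5707 of all 15680 genes tested. Of the 35, 29 did so after median-ratio scaling and 27 after quantile normalization. The median of all genes tested shifted up as well, from -0.09 to 0.01 and 0.05, so these counts stand against a different background. At an unadjusted p under 0.05 limma gave 7 of the 35, 5 higher and 2 lower, where 28.4% of all genes passed that measure, 6.36% higher and 22% lower. The values of the groups did not overlap for Psma6, higher in every miR-130a library, and for Psmc3ip, lower in every one. Such separation was seen in 1.85% of all genes with the miR-130a libraries higher and in 9.46% with them lower.

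**Figure D1:**
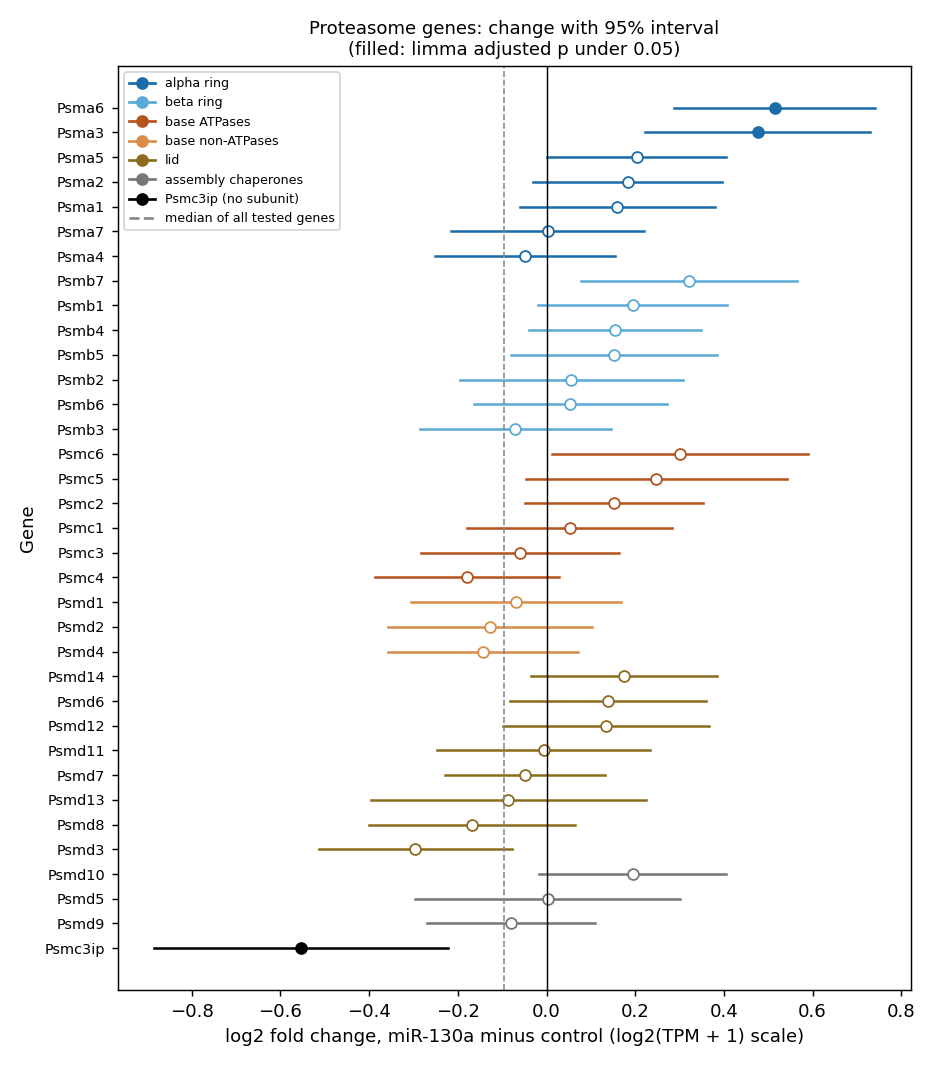
Log2 fold change (horizontal axis, miR-130a minus control, log2(TPM + 1) scale) of each of the 35 tested genes (vertical axis), coloured by role, with 95% intervals from limma. Filled points (Psma6, Psma3 and Psmc3ip) passed the threshold, and the dashed line marks the median of all genes tested at -0.09.

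The sequences that matter for these results are those that decide which gene a read belongs to and which gene the microRNA could pair with. Psma3 has a near-complete processed copy, the pseudogene Gm13835, which lies at chr6:31141979-31142663 on the minus strand (GRCm38, GENCODE M21, 1 exon). Across its 685 nt the copy matches the coding sequence of Psma3 (768 nt, 255 residues) base for base, apart from 83 nt that the copy lacks near its start. The first bases of both are given 5′ to 3′, with the stretch that only Psma3 has in capitals; beyond it, the 662 nt that run to the stop codon are the same in both.
Psma3 coding sequence, first bases: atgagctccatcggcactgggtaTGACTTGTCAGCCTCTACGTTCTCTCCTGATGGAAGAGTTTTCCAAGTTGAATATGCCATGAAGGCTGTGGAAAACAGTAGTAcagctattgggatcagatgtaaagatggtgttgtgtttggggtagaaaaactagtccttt
Gm13835, first bases: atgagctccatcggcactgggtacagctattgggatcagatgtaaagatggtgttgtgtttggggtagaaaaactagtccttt

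The overexpressed microRNA, mmu-miR-130a-3p, is encoded at chr2:84741116-84741137 on the minus strand (RefSeq, GRCm38.p6), and its mature sequence is shown with the seed, bases 2 to 8, in capitals. A search for the seed match TTGCACT or TGCACTA on the sense strand of the longest annotated 3′ UTR of each gene (GENCODE M21) found 1 match among the 37 proteasome genes. It lies at position 1205 of the 2171-nt UTR of Psma2, an alpha-ring subunit, and is the overlap of both motifs, TTGCACTA, in capitals in the Psma2 line.
mmu-miR-130a-3p: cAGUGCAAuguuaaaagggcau
Psma2 site: aggtctcacatTTGCACTAcaggtgcttta

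Thus 2.70% of the proteasome genes had a match, where 16.0% of the 13275 tested genes with an annotated UTR had one. The longer form TTGCACTA, which the Psma2 match has, was found in 2.46% of those tested genes. UTRs of the proteasome genes were short, with a median of 335 nt against 1225 nt. Among the 4508 tested genes with a UTR of 141 to 873 nt, the middle range of the proteasome genes, 4.88% had a match. In 0.577% of them it was the longer form. Psma2 itself had 39.5 ± 2.86 TPM in controls and 45.1 ± 5.17 with miR-130a (SD, n = 5 each). Its log2 fold change of 0.18 did not pass the threshold (95% interval -0.03 to 0.40, limma adjusted p = 0.246), and the groups overlapped.

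The alpha ring was read from 7 genes above the filter, whose mean level over the 10 libraries ran from 42.3 TPM for Psma2 to 184 TPM for Psma7. Of these, 2 were higher and 5 did not pass the threshold. In 6 of the 7 the log2 fold change lay above 0, beside 5707 of all 15680 genes tested. Psma6 (ENSMUSG00000021024), a structural subunit of the ring, had 100.92, 120.28, 111.29, 123.23 and 133.39 TPM in control libraries 3, 4, 5, 7 and 9. In miR-130a libraries 13, 14, 15, 17 and 18 it had 189.56, 170.47, 169.20, 174.50 and 140.07 TPM. Every miR-130a library lay above every control library, with library 18 nearest to the highest control, library 9. The means were 118 ± 12.3 and 169 ± 18.0 TPM (SD, n = 5 each), a log2 fold change of 0.51 (SE 0.10, 95% interval 0.29 to 0.74, limma adjusted p = 0.00821). Psma6 passed the threshold under every alternative scaling, filter and left-out library tried, with adjusted p between 0.00353 and 0.0270 from limma. No annotated pseudogene matched its transcript at 90% identity or more over 200 nt.

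Psma3 (ENSMUSG00000060073), another alpha-ring subunit, had 75.41, 66.38, 67.70, 78.65 and 102.15 TPM in control libraries 3, 4, 5, 7 and 9. The miR-130a libraries had 106.76, 102.79, 112.19, 116.95 and 100.24 TPM in the order given above. The groups overlapped only because control library 9 lay above miR-130a library 18. The log2 fold change was 0.48 (SE 0.12, 95% interval 0.22 to 0.73, limma adjusted p = 0.0201). Because most of the coding sequence is shared with Gm13835, the Psma3 value alone is uncertain, and both genes are given side by side.

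The pseudogene Gm13835, singled out after its values were seen, was listed at 38.65, 42.95, 44.36, 27.33 and 27.90 TPM in the control libraries and at 27.42, 27.62, 34.92, 4.75 and 9.05 TPM in the miR-130a libraries. It had the opposite sign to Psma3, with a log2 fold change of -1.05 that did not pass the threshold (limma adjusted p = 0.146). Libraries 17 and 18 were lowest, and the groups overlapped. Pseudogene copies made up 31.7% of the summed TPM of Psma3 and its copies in controls and 16.1% with miR-130a. Of the 37 genes, 13 had such a copy in the table, and for those other than Psma3 the share was at most 0.473%.

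The sum of Psma3 and Gm13835 was 114.06, 109.33, 112.06, 105.98 and 130.05 TPM in controls and 134.18, 130.41, 147.11, 121.70 and 109.29 TPM with miR-130a. On the sum, the ranges of the groups overlapped and the log2 fold change was 0.16 (95% interval -0.05 to 0.37, limma adjusted p = 0.295). Psma3 thus passed the threshold alone and did not pass it together with its copy. TPM divides by transcript length, so reads assigned to the shorter copy weigh more in this sum than reads assigned to Psma3.

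**Figure D2:**
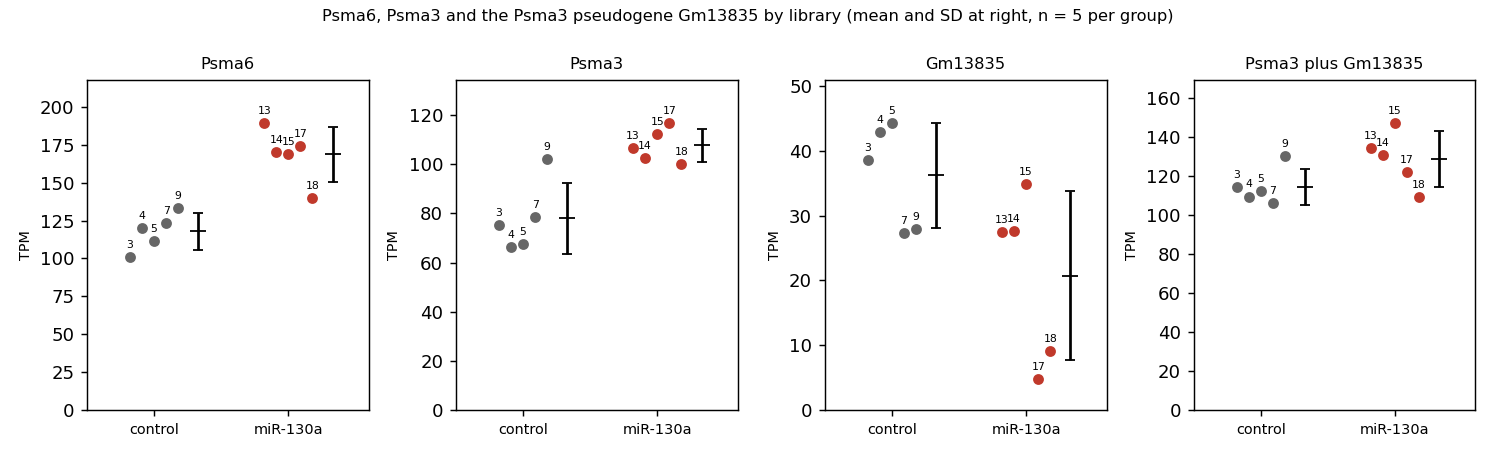
TPM (vertical axes, from 0) of Psma6, Psma3, the pseudogene Gm13835 and the sum of Psma3 and Gm13835 in each library, with library numbers at the points and the mean and SD of each group beside them (n = 5). For Psma6 the groups are apart, for Psma3 control library 9 reaches the miR-130a range, and for the sum the groups overlap.

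The other 5 alpha-ring genes did not pass the threshold. Psma5 had a log2 fold change of 0.20, Psma1 of 0.16, Psma7 of 0.00 and Psma4 of -0.05, and the groups overlapped for each. Psma7, the most abundant of the ring, had 183 ± 12.3 TPM in controls and 185 ± 23.3 with miR-130a (SD, n = 5 each; log2 95% interval -0.21 to 0.22). Psma8, which replaces Psma7 in the testis proteasome, lay below the filter, at 0.37 to 1.64 TPM in controls and 0.23 to 1.18 TPM with miR-130a.

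In the beta ring 7 genes were tested and none passed the threshold with limma, while Psmb7 alone did so at an unadjusted p under 0.05. Their mean levels ran from 100 TPM for Psmb2 to 248 TPM for Psmb5. A log2 fold change above 0 was seen in 6 of 7, beside 5707 of all 15680 genes tested. Psmb7 (ENSMUSG00000026750), which carries the trypsin-like site, had 190.90, 179.00, 170.05, 181.40 and 219.75 TPM in the control libraries. In the miR-130a libraries it had 240.79, 226.83, 251.07, 274.09 and 188.15 TPM. The first 4 of these lay above all control libraries, while library 18 lay within their range. The log2 fold change was 0.32 (SE 0.11, 95% interval 0.08 to 0.56, limma adjusted p = 0.0800). Without control library 9 the adjusted p from limma was 0.0254, and without miR-130a library 18 it was 0.0295. Of all genes 21.9% and 12% passed the threshold in these settings.

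The other catalytic subunits moved less. Psmb5 (ENSMUSG00000022193), the chymotrypsin-like subunit, had 232.57, 257.01, 203.23, 251.74 and 229.17 TPM in controls and 287.46, 248.11, 233.83, 308.71 and 231.30 TPM with miR-130a. The ranges overlapped, and the log2 fold change was 0.15 (95% interval -0.08 to 0.38, limma adjusted p = 0.385). Psmb6 (ENSMUSG00000018286), the caspase-like subunit, had 238.22, 236.82, 201.11, 237.93 and 234.88 TPM in controls and 236.68, 219.18, 225.14, 294.39 and 222.28 TPM with miR-130a. Its ranges overlapped as well, and the log2 fold change was 0.05 (95% interval -0.16 to 0.27, limma adjusted p = 0.776). Of the structural beta subunits, Psmb1 had a log2 fold change of 0.19, Psmb4 of 0.15, Psmb2 of 0.06 and Psmb3 of -0.07. Psmb11, the thymus-specific catalytic subunit, lay below the filter, at 0.04 to 0.09 TPM in controls and 0.02 to 0.33 TPM with miR-130a.

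The immunoproteasome counterparts of the catalytic subunits were measured in the same libraries. Psmb8, which takes the place of Psmb5, had 99.74, 76.45, 62.95, 187.72 and 218.43 TPM in controls and 14.24, 11.40, 54.47, 27.74 and 22.11 TPM with miR-130a, with no overlap (log2 fold change -2.31, limma adjusted p = 0.00585). The ratio of Psmb8 to Psmb5 ran from 0.297 to 0.953 in controls and from 0.0459 to 0.233 with miR-130a. Psmb9, which replaces Psmb6, was lower as well (-1.90, limma adjusted p = 0.0177). It did not pass without miR-130a library 14 (limma adjusted p = 0.050), without control libraries 7 and 9 (0.0555) or with no filter on low values (0.0594). The ratio of Psmb9 to Psmb6 was 0.0635 to 0.261 in controls and 0.0177 to 0.0763 with miR-130a. Psmb10, which replaces Psmb7, had a log2 fold change of -0.23 that did not pass the threshold (limma adjusted p = 0.438). The ratio of Psmb10 to Psmb7 was 0.426 to 0.711 and 0.359 to 0.437, where control library 5 lay within the miR-130a range. For Psmb8 and Psmb9 the log2 fold change of the immunoproteasome subunit was far larger in size than that of its constitutive counterpart, while Psmb7 and Psmb10 had values of similar size and opposite sign.

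**Figure D3:**
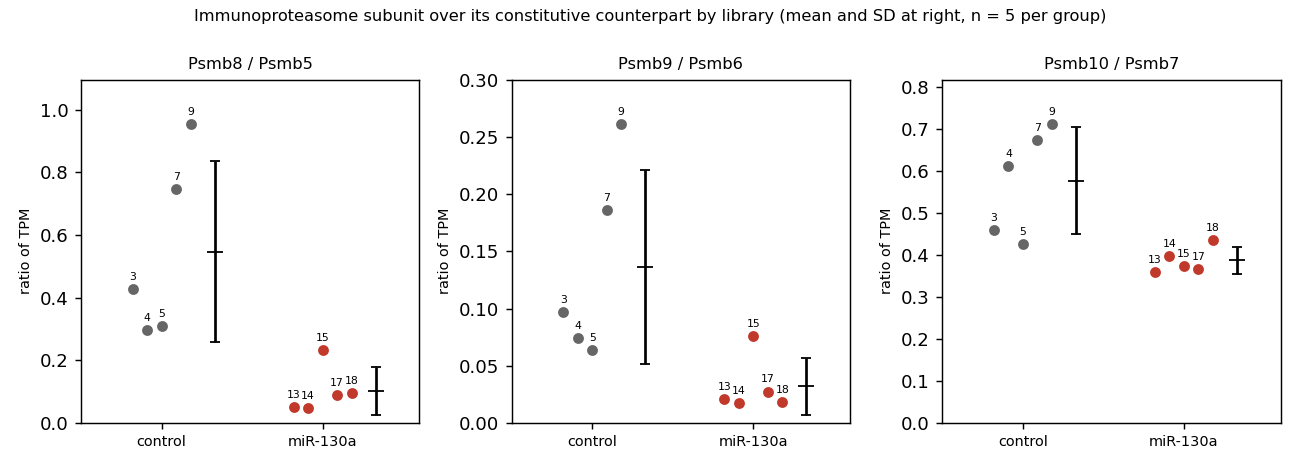
Ratio of TPM (vertical axes, from 0) of each immunoproteasome subunit to the constitutive subunit it replaces, in each library, with the mean and SD of each group (n = 5). Psmb8 to Psmb5 lies between 0.297 and 0.953 in controls and between 0.0459 and 0.233 with miR-130a; control libraries 7 and 9 are the highest in all 3 panels.

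The immunoproteasome is abundant in microglia. Mean ratios of Psmb8 to Psmb5, of Psmb9 to Psmb6 and of Psmb10 to Psmb7 (0.577 and 0.387) were lower with miR-130a, as were the microglial markers. Library by library, the ratios did not always follow the marker sum. Psmb10 to Psmb7 was 0.613 in control library 4, which had the lowest marker sum of the controls, and 0.461 in control library 3. Psmb8 to Psmb5 was 0.233 in miR-130a library 15 and 0.0899 in library 17, at marker sums of 1135 and 1155 TPM. All 10 microglial markers listed were lower in the miR-130a libraries (limma adjusted p under 0.05). Their summed level was 2021 to 4740 TPM in controls and 772 to 1155 TPM with miR-130a, highest in control libraries 9 and 7. In bulk tissue, fewer cells of a type and less RNA per cell cannot be told apart. The part of microglia in these ratios and in the levels of the constitutive subunits was not tested.

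The base of the regulatory particle holds 6 ATPases, which spanned the widest range of levels of any role, from 41.3 TPM for Psmc6 to 312 TPM for Psmc5. None passed the threshold with limma, and Psmc6 alone did so at an unadjusted p under 0.05. A log2 fold change above 0 was seen in 4 of 6, beside 5707 of all 15680 genes tested. Psmc6 had 40.00, 33.74, 34.34, 37.01 and 37.70 TPM in controls and 46.44, 46.35, 61.91, 36.03 and 39.05 TPM with miR-130a. Library 15 was far above the rest, and libraries 17 and 18 lay within the control range (log2 fold change 0.30, 95% interval 0.01 to 0.59, limma adjusted p = 0.160). Psmc5 had 285 ± 39.3 TPM in controls and 340 ± 63.7 with miR-130a (SD, n = 5 each; log2 fold change 0.25, limma adjusted p = 0.259). Psmc4 had 113.12, 116.05, 108.97, 118.63 and 90.45 TPM in controls and 106.01, 91.20, 90.55, 103.39 and 90.62 TPM with miR-130a (-0.18, limma adjusted p = 0.248). Control library 9 was the lowest of all 10 for Psmc4. Without it the adjusted p from limma was 0.0397 with a log2 fold change of -0.25, where 21.9% of all genes passed. The remaining ATPases, Psmc2, Psmc1 and Psmc3, had log2 fold changes of 0.15, 0.05 and -0.06.

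The non-ATPase subunits of the base among the genes of the rule are the scaffolds Psmd1 and Psmd2 and the ubiquitin receptor Psmd4. All 3 had a log2 fold change below 0 (-0.07, -0.13 and -0.14), beside 9973 of all 15680 genes tested. After median-ratio scaling or quantile normalization 2 of 3 lay below 0, and 1 of 3 after centring within bins of transcript length. None passed the threshold with limma, adjusted or unadjusted. Psmd2, the most abundant of them, had 172 ± 19.4 TPM in controls and 157 ± 16.8 with miR-130a (SD, n = 5 each). Psmd4 had 169 ± 10.5 and 153 ± 19.6 TPM.

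Among the 8 lid genes the mean levels ran from 38.1 TPM for Psmd11 to 142 TPM for Psmd8. None passed the threshold with limma, and Psmd3 alone did so at an unadjusted p under 0.05. A log2 fold change above 0 was seen in 3 of 8, beside 5707 of all 15680 genes tested. After median-ratio scaling or quantile normalization it was seen in 6 of 8. Psmd3 (ENSMUSG00000017221), a structural subunit of the lid, had 112.50, 117.89, 119.64, 110.83 and 85.57 TPM in control libraries. In the miR-130a libraries it had 92.84, 85.63, 82.99, 91.84 and 88.13 TPM. All of these were below control libraries 3, 4, 5 and 7, while control library 9 lay within their range. The log2 fold change was -0.30 (SE 0.10, 95% interval -0.51 to -0.08, limma adjusted p = 0.0717). Without control library 9 it was -0.38 and passed the threshold (limma adjusted p = 0.00402), as 21.9% of all genes did in that setting.

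Psmd14, the lid's metalloprotease that cuts ubiquitin chains from substrates, had 71.83, 62.84, 65.32, 72.11 and 67.08 TPM in controls and 83.25, 82.45, 85.25, 67.85 and 66.41 TPM with miR-130a. The first 3 miR-130a libraries lay above all controls and the other two within their range (log2 fold change 0.17, 95% interval -0.03 to 0.38, limma adjusted p = 0.263). Psmd6 and Psmd12 had log2 fold changes of 0.14 and 0.13, Psmd11 of -0.01, Psmd7 of -0.05, Psmd13 of -0.09 and Psmd8 of -0.17.

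The assembly chaperones, which help to build the ATPase ring and leave the finished particle, were expressed at 17.1 to 17.8 TPM, below every tested subunit. None of the 3 passed the threshold with limma, adjusted or unadjusted. The log2 fold changes were 0.19 for Psmd10, 0.00 for Psmd5 and -0.08 for Psmd9.

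Psmc3ip (ENSMUSG00000019303) had 2.45, 2.92, 3.36, 3.56 and 2.75 TPM in controls and 1.04, 2.00, 1.90, 1.81 and 1.97 TPM with miR-130a. The groups did not overlap, and library 13 was the lowest. The log2 fold change was -0.55 (SE 0.15, 95% interval -0.89 to -0.22, limma adjusted p = 0.0332). This call did not hold under 10 of the alternatives: limma's adjusted p was 0.131 after quantile normalization and 0.0938 with no filter on low values. The level is close to the filter, and the fold change on this scale understates a change at such a level.

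The signs of the core and of the regulatory particle are given as counts, with no test of a difference. Of the 14 core-particle genes tested, 12 had a log2 fold change above 0 (median 0.16), and 7 of the 17 regulatory-particle genes did (median -0.05). Among all genes tested 5707 of 15680 lay above 0 (median -0.09), so 7 of 17 does not stand below the background. The particle counts were 14 of 14 and 12 of 17 after median-ratio scaling. After centring within bins of transcript length they were 11 of 14 and 13 of 17, nearly the same share. The summed core-particle TPM was 1982, 1933, 1825, 2047 and 2099 in controls and 2335, 2096, 2240, 2469 and 1907 with miR-130a. The summed regulatory-particle TPM was 2086, 2210, 2275, 2135 and 1796 in controls and 2229, 2009, 2024, 2379 and 1861 with miR-130a. Means were 1977 ± 106 and 2209 ± 217 for the core, and 2100 ± 185 and 2100 ± 204 for the regulatory particle (SD, n = 5 each), and the groups overlapped for both.

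The ratio of the sums was 0.950, 0.875, 0.802, 0.959 and 1.17 in controls and 1.05, 1.04, 1.11, 1.04 and 1.02 with miR-130a. Control library 9 had the highest ratio of all, and the other 4 control libraries lay below every miR-130a library. Control library 9 also had the lowest summed level of the excitatory neuron markers (3157 TPM) and of the general neuron markers (2135 TPM) among the 10 libraries. No test was made of the sums, whose genes were chosen with results of these data known.

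**Figure D4:**
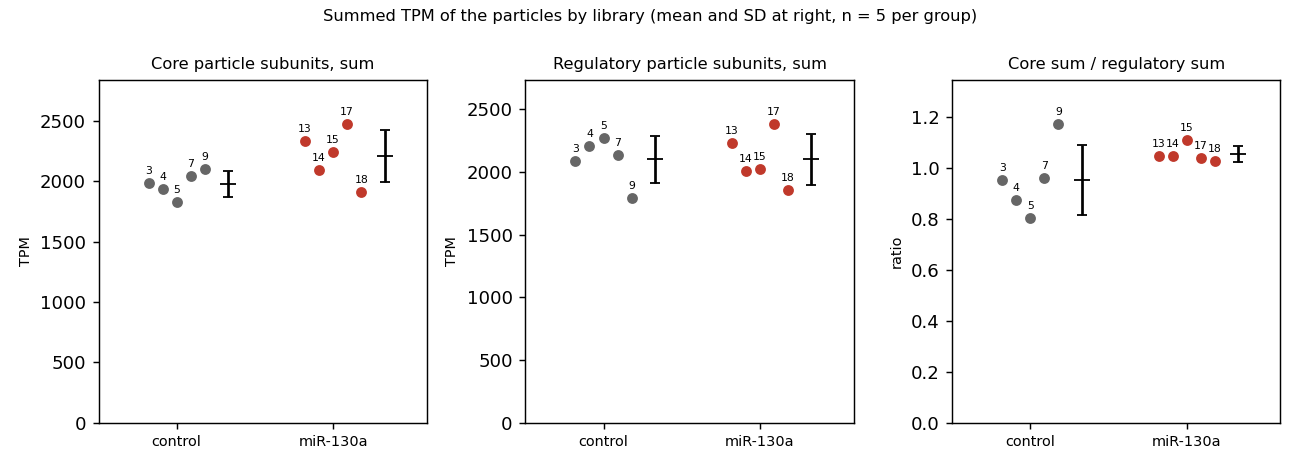
Summed TPM of the core-particle and of the regulatory-particle genes and the ratio of the sums (vertical axes, from 0) in each library, with the mean and SD of each group (n = 5). The ratio is 1.02 to 1.11 with miR-130a and 0.802 to 0.959 in control libraries 3, 4, 5 and 7, while control library 9 reaches 1.17.

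The sign of the regulatory-particle median depended on the scaling. It was -0.05 as deposited, 0.07 after median-ratio scaling between libraries, 0.04 after quantile normalization and 0.01 when mitochondrially encoded genes were left out of the total. The median of all genes tested shifted with it, from -0.09 to 0.01, 0.05 and -0.04. The core-particle median stayed above 0 under these scalings, between 0.16 and 0.27. The share of TPM taken by mitochondrially encoded genes was 14.7% ± 1.48 in controls and 18.2% ± 1.96 with miR-130a (SD, n = 5 each).

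Core-particle transcripts were also shorter, with a median of 1163 nt against 1785 nt in the regulatory particle. Over all tested protein-coding genes, the shortest transcripts differed from the rest. In 10 bins of transcript length, the shortest bin (180 to 1215 nt, 1325 genes) had a median log2 fold change of 0.02, while the other 9 bins had medians of -0.15 to -0.07 and, beyond the shortest 2 bins, showed no trend with length. When each library was centred within these bins, an alternative added after the values were seen, the medians were 0.12 for the core and 0.08 for the regulatory particle. In that form 8 proteasome genes passed the threshold with limma, 7 of them higher (Psma6, Psma3, Psmb7, Psmb1, Psma5, Psmc6 and Psmc2) and Psmc3ip lower. Among the 13213 genes in that form 18.3% passed in either direction, and 8 of 35 is near that share. By direction, 7 of the 8 proteasome calls were higher, beside 44.3% of the calls among all genes. Of the 7, Psma3 did not pass the threshold together with its pseudogene copy when values were not centred. This difference in direction was not tested. The part of transcript length in the difference between the particles was not otherwise tested.

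**Figure D5:**
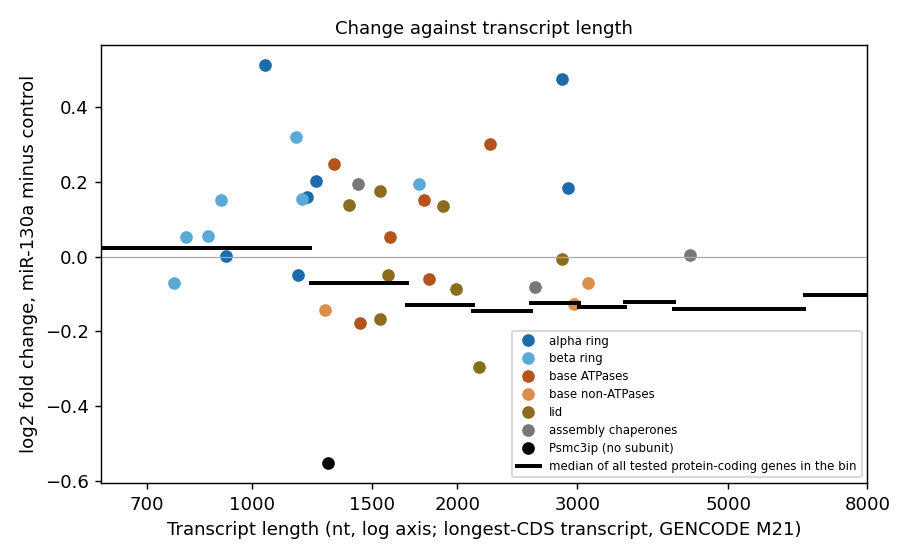
Log2 fold change (vertical axis, miR-130a minus control) of the 35 tested genes against transcript length (horizontal log axis, nt), coloured by role. Black lines give the median of all tested protein-coding genes in each of 10 length bins, which is 0.02 in the shortest bin and between -0.15 and -0.07 in the others.

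The libraries ranked the proteasome genes differently within each group. Over the 34 tested genes other than Psmc3ip, miR-130a library 17 had the highest value of all 10 libraries for 13 genes, and miR-130a library 18 the lowest for 9. Among the controls, library 5 was highest for 9 genes, and libraries 9 and 4 were lowest for 9 and 8. The summed TPM of all proteasome genes was 4132 ± 111 in controls and 4364 ± 415 with miR-130a (SD, n = 5 each), with the widest spread inside the miR-130a group, from 3822 in library 18 to 4898 in library 17.

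Promoter sequences from RefSeq (GRCm38.p6, 250 bases before to 50 after the start) were matched by symbol for 30 of the 37 genes. CCAAT, the box bound by the factor NF-Y, was found on either strand in 13 of these 30 (43.3%), against 42.4% of tested genes and 41.1% of all genes in that table. It stood on both strands in 6 of the 30, against 7.67% of tested genes and 6.58% of all. These 6 were Psma6 and Psma3, which were higher, and Psma1, Psmd10, Psmd14 and Psmd4, which did not pass the threshold. Psmd4 had a log2 fold change below 0 (-0.14). Psma6 has another annotated start whose window had no match. The core of the antioxidant response element, which Nfe2l1 and Nfe2l2 bind, was found on either strand in 1 gene, Psmd12 (3.33%, against 3.20% of tested genes and 3.45% of all). No binding was measured in these libraries.

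The transcription factor Nfe2l1 raises proteasome genes together when proteasome activity falls, after processing by enzymes such as Ddi2 and Ngly1. Of 12 genes listed for its pathway and for the related factor Nfe2l2, 2 were lower and 10 did not pass the threshold. Among all genes tested 11.3% were lower. All 12 had a log2 fold change below 0 (median -0.16), beside 9973 of all 15680 genes tested. This count is given for the deposited scaling alone, and Ddi2, Ngly1 and Ufd1 lay near 0 (-0.01, -0.04 and -0.05). Nfe2l2, the regulator of antioxidant genes, had 24.29, 20.77, 25.18, 28.47 and 31.92 TPM in controls and 10.48, 10.36, 11.82, 11.22 and 11.31 TPM with miR-130a. The groups were far apart (log2 fold change -1.16, limma adjusted p = 0.000503). Nploc4, a cofactor of the segregase Vcp, was lower as well (-0.49, limma adjusted p = 0.0161). Its groups overlapped, with control library 9 at 35.84 TPM and miR-130a library 17 at 36.30 TPM. Nfe2l1 itself had a log2 fold change of -0.20 and Ddi2 of -0.01, and neither passed the threshold.

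Of the 5 activators and inhibitors of the core particle, 1 was lower. Psme1, a subunit of the interferon-induced activator ring, had a log2 fold change of -0.66 (limma adjusted p = 0.0404), a call that did not hold under 13 alternatives, among them leaving out control library 7 (-0.57, limma adjusted p = 0.102). Its partner Psme2 had -0.78 (limma adjusted p = 0.0783). In 2 other groups no gene passed the threshold with limma: 0 of 5 further assembly factors and 0 of 12 other components and enzymes bound to the complex. The unadjusted counts in these groups were 0 and 2. The lowest adjusted p-values of the assembly factors were those of Psmg1 (0.22, limma adjusted p = 0.290) and the maturation protein Pomp (-0.10, limma adjusted p = 0.630). Sem1, a small lid subunit, had a log2 fold change of 0.47 (limma adjusted p = 0.113) and Ubqln4, a shuttle for ubiquitinated proteins, of -0.39 (limma adjusted p = 0.147). Ubb, which encodes ubiquitin, had a log2 fold change of -0.24 (limma adjusted p = 0.235). Without control library 9, Sem1 (0.61, limma adjusted p = 0.0136), Ubqln4 (-0.55, limma adjusted p = 0.00691) and Ubb (-0.34, limma adjusted p = 0.0286) passed the threshold. In that setting 21.9% of all genes passed, against 13.5% with all libraries.

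Markers of the other cell types in the punch were measured beside these genes. Of the endothelial markers 4 of 6 were lower, with sums of 165 to 187 TPM in controls and 112 to 149 TPM with miR-130a. Of the inhibitory neuron markers 2 of 6 were higher, Sst and Vip, with sums of 893 to 1135 TPM in controls and 1254 to 1640 TPM with miR-130a. Most of that difference is Sst, with means of 645 and 1065 TPM, so the sums speak mainly of that gene. Of the 6 markers 5 had a log2 fold change above 0 (median 0.26). Among them Gad2, Pvalb and Gad1 (0.27, 0.26 and 0.19) did not pass the threshold. Slc32a1, with 62.5 and 59.9 TPM, lay below 0. None of the listed markers of astrocytes (8), oligodendrocytes (7), excitatory neurons (6) or neurons in general (5) passed the threshold with limma, and the unadjusted counts were 4, 1, 1 and 1. The labelled tissue is cortex of mixed cell types, and both neuronal and glial markers were present in every library. The part of cell composition in the proteasome values was not tested.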

How the data were processed

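The authors deposited 1 table of TPM by gene. Tools named in the submitters' processing notes are fastp, HISAT2, RSEM and DESeq2, and the build named there is GRCm39; neither versions nor the role of each are stated. TPM keeps no depth, so no counting interval was computed, and in a fixed total a change in abundant transcripts shifts all others. Each column was matched to its library by title, and the 2 columns of the authors' group means were not used. No libraries held identical values.

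Values were analysed as log2(TPM + 1), which understates the fold change of low genes. The 15680 genes with a mean of at least 1 TPM were compared in limma 3.58.1 (R 4.3.3, lmFit and eBayes with a trend), 5 against 5 libraries, 2-sided, without covariates, with Benjamini-Hochberg adjustment over all of them and a threshold of 0.05. Input was read with data.table (1.17.8). The fit was tested on simulated data. The labels give no batch, and library numbers of the 2 groups form separate ranges, so processing that followed them cannot be told apart from the group.

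The genes, the companion lists and the marker lists were chosen with earlier results of these data known. Named in full are Psmb5, Psmb6 and Psmb7, genes past the threshold, and in each role the 2 lowest p and the most abundant. Companion lists are represented by their 2 lowest p and each gene past the threshold; any other gene was chosen after its values were seen. Not every gene so selected is reported here. Transcript lengths, 3′ UTRs and pseudogenes came from GENCODE M21 (GRCm38), matched by gene identifier, with 1 transcript of longest coding sequence per gene for lengths. Pseudogene copies were searched with blastn 2.17.0 (at least 90% identity over 200 nt). Sequence searches and figures used Python 3.11.15 with pandas 2.3.3 and matplotlib 3.10.9. Alternatives were a pseudocount of 0.1, no filter, a filter at 5 TPM, 4 scalings (median-ratio, quantile, protein-coding total, total without mitochondrially encoded genes), no trend, robust moderation, leaving out each library, and leaving out control libraries 7 and 9. Centring within 10 length bins and summing with pseudogene copies were chosen after seeing the data. Psmb5 and Psmd1 overlap other genes on the same strand (Mir686 and Gm21972), whose mean levels were 0 and 0.639 TPM.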

Additional observations from a re-analysis of the deposited data

Results flagged for a closer look

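Within groups of 5 libraries, 10 of 106 sets of values had 1 library far from the other 4: its gap to the nearest value was over 0.71 of the whole range. Chance gives about 1 in 20 such sets.

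In control library 9, which also has the highest ratio of core to regulatory particle, the lid gene Psmd3 was low at 85.57 TPM, with the next control at 110.83, and the ubiquitin receptor Psmd4 was low at 150.63 TPM, with the next at 170.37. In control library 5 the beta subunits Psmb6 (201.11 TPM, next 234.88) and Psmb4 (184.45 TPM, next 208.42) were low, and the chaperone Psmd5 was high (23.79 TPM, next 16.47). In control library 4 the alpha subunit Psma4 was low at 97.05 TPM, with the next at 113.55, and the testis variant Psma8 was high at 1.64 TPM, with the next at 0.69.

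Among miR-130a libraries, Psmb6 was high in library 17 at 294.39 TPM, with the next at 236.68. Psmc3ip was low in library 13 at 1.04 TPM, with the next at 1.81. The ratio of summed core to regulatory TPM was 1.11 in library 15, and the next was 1.05.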

How the results depend on the processing

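The count of 3 proteasome genes past limma's threshold became 8 (7 higher, 1 lower) when values were centred within length bins, where 2418 of 13213 genes (18.3%) passed, and ranged from 2 to 6 when single libraries were left out. It was 6 without control library 9, a setting in which 21.9% of all genes passed and Psmd3 and Psmc4 (lower) and Psmb7 (higher) were added. It was 3 without control libraries 7 and 9, with Psmd3 in place of Psmc3ip. Psma6 passed under every alternative run; Psma3 passed under all but the sum with its pseudogene copies. With median-ratio scaling, quantile normalization or a total without mitochondrially encoded genes the 3 calls were all higher, with Psmc6, Psmd10 and Psmb7, respectively, in place of Psmc3ip.

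The median log2 fold change of the proteasome genes was 0.17 with median-ratio scaling, against 0.05, and 0.03 to 0.12 without single libraries. The count of all genes past the threshold was 1302 with no filter, against 2110, and ranged from 1228 (without control library 7) to 3413 (without control library 9). It was 1278 and 1313 without miR-130a libraries 14 and 13. Of these calls 16.3% were higher, against 42.0% with median-ratio scaling, 50.6% with quantile normalization, 26.2% without mitochondrially encoded genes and 44.3% after centring within length bins. Among the named proteasome genes, those that passed the threshold kept their sign under every alternative run; Psma7 changed sign under 7 (-0.05 to 0.00), Psmb6 without miR-130a library 17 (-0.02) and Psmd2 after length centring (0.02), all with adjusted p of at least 0.757 from limma. Causes were not tested. Depth is unknown, so counting error could not be separated from the spread between libraries.

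No paired analysis was possible because the library numbers of the groups are not shared.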
